A study of Mus musculus with 16 samples.

Results

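The injury by genotype interaction was examined in tail intervertebral discs, the pads of cartilage and fibrous tissue between the vertebrae, of Adam8EQ mutant and wild-type mice. For each gene the injury effect was the mean log2(TPM + 1) of injured mice minus that of intact mice of the same genotype. The interaction was the injury effect in mutants minus the injury effect in wild type, so a positive value means a stronger rise or a weaker fall in mutants. All 16 libraries of the series entered: 5 mutant injured, 4 mutant intact, 4 wild-type injured and 3 wild-type intact mice. Each library pooled 4 discs of the tail of 1 mouse, so the replicates are different animals. Of 49315 genes in the table, 24188 passed the filter on low values (1 TPM or more in 3 or more libraries). TPM counts the reads of a gene relative to its length, as a share of all such values in the library, so it compares genes as well as mice.

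Adam8 encodes a membrane-bound metalloprotease of leukocytes and other cells. The labels name the mutant allele Adam8EQ and describe it no further, and the series title gives the inbred strain DBA as what it was compared with. Both genotypes were sampled injured and intact. Age, sex, the kind of injury, the time after it and the hour of collection are not given in the labels. As background, a disc holds a soft nucleus pulposus that derives from the notochord, a fibrous annulus with tendon-like cells, and cartilage endplates. Injury to a disc is known to bring in leukocytes, to induce cytokines and matrix-degrading enzymes, and to lower the cartilage programme of disc cells.

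Pathways were taken as 93 lists of genes covering matrix families, signalling pathways, cytokines, cell types and cell functions. The lists hold 2719 genes, of which 2694 were in the table and 2410 passed the filter on low values. Each list was ranked by the median interaction of its tested members. The 10 highest and 10 lowest lists are described, with the median of all tested genes (-0.08) as the reference. The members and lists were chosen with earlier results of these data known. A list described for its high or low median tends to hold more low interaction p-values on that side. The shares of members set beside those of all tested genes therefore describe the lists and test nothing. A member that passed the filter only through the group where it is high had to differ, so the counts below describe the tested members and not the whole lists.

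Depth, inferred from the steps between low TPM values, was 10220111 to 24881478 reads (median 13315172). Markers of disc tissue were present in every library: Acan, the core protein of aggrecan, lay at 2426 to 7024 TPM and Sox9, the cartilage transcription factor, at 353 to 972 TPM. The notochordal gene T lay at 21.5 to 3370 TPM and the annulus collagen gene Col1a1 at 589 to 6014 TPM. The 4 injured wild-type mice did not respond alike. Adam8 itself lay at 3.52 and 5.59 TPM in injured wild-type mice 1 and 2 and at 66.3 and 54.9 TPM in mice 3 and 4. In injured mutants 1 to 5 it lay at 68.4, 264, 39.4, 48.3 and 16.2 TPM, and in the 7 intact libraries it did not exceed 2.97 TPM. The level of a transcript does not check an allele of this kind, so the genotype rests on the labels. The libraries are named A8 or M in mutants and D in all wild-type mice, so naming and genotype cannot be told apart in wild type. Values with the mutants of 1 name alone are given beside the lists whose medians they moved most.

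No gene passed an adjusted p of 0.05 for the interaction (limma, Benjamini-Hochberg, 0 of 24188, 0.0%). The smallest adjusted p was 0.106, shared by Ippk and Matn2. At an unadjusted p under 0.05 stood 1979 genes (8.18%), of which 533 (2.2%) were higher and 1446 (5.98%) lower in mutants. Under median-of-ratios scaling the same counts were 873 higher and 1031 lower, and under quantile normalization 784 higher and 940 lower. The interaction was above 0 in 10108 genes (41.8%). Within genotypes the counts were unequal: injury called 3168 higher (13.1%) and 4270 lower (17.7%) in mutants, and 26 higher (0.107%) and 2 lower (0.00827%) in wild type (limma, adjusted p under 0.05). A call in mutants without one in wild type is therefore no sign of an interaction, and every interaction below is a measured value and not a call. The shares over all tested genes given above are the background for the counts of every list below. The standard error (SE) printed with an effect comes from the residual spread of that gene alone. The p-values use variances moderated over all genes, so an SE can be smaller or larger than the spread behind its p-value. Leaving out injured wild-type mouse 1 raised the wild-type count from 28 to 452 genes, while without mouse 2, 3 or 4 it was 12, 11 or 10. Leaving out injured wild-type mouse 3 raised the interaction count from 0 to 15.

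The order of the lists set inflammation, immediate early genes and histones at the top, and connective tissue matrix, secreted Wnt antagonists and cartilage genes at the bottom. The highest median interaction was 1.14, for skeletal muscle markers, followed by 0.95 for replication-dependent histones and 0.88 for CXC chemokines. The lowest was -1.01, for tendon and annulus fibrosus markers, followed by -0.95 for secreted Wnt antagonists and -0.95 for small leucine-rich proteoglycans. The median of 47 lists lay above 0 and that of 46 below. Injury effects of the lists had the same sign in both genotypes for most inflammatory lists and differed mainly in size. For several matrix lists the wild-type median lay near 0 while the mutant median was well below it.

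**Figure D1:**
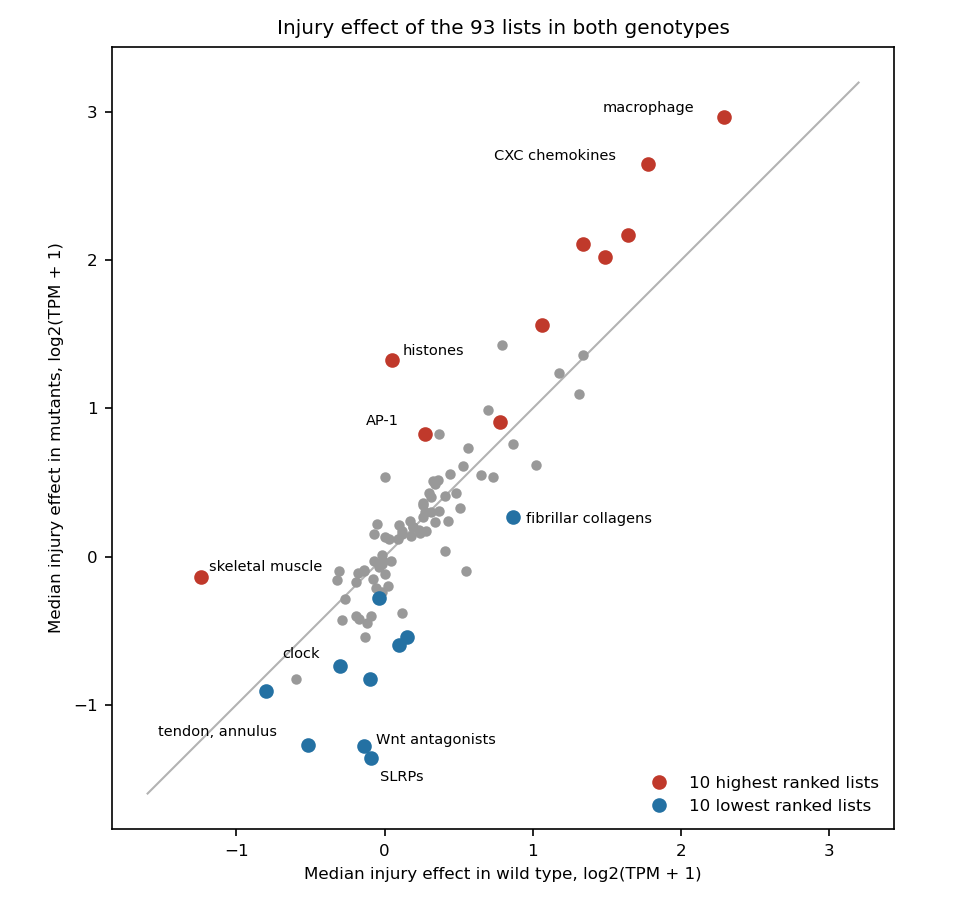
Each point is 1 of the 93 lists, placed by its median injury effect in wild type (x axis) and in mutants (y axis), both on the log2(TPM + 1) scale, and the line marks equal effects. Macrophage markers lie at 2.29 in wild type and 2.97 in mutants, while the small leucine-rich proteoglycans (SLRPs) lie at -0.09 and -1.36.

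**Figure D2:**
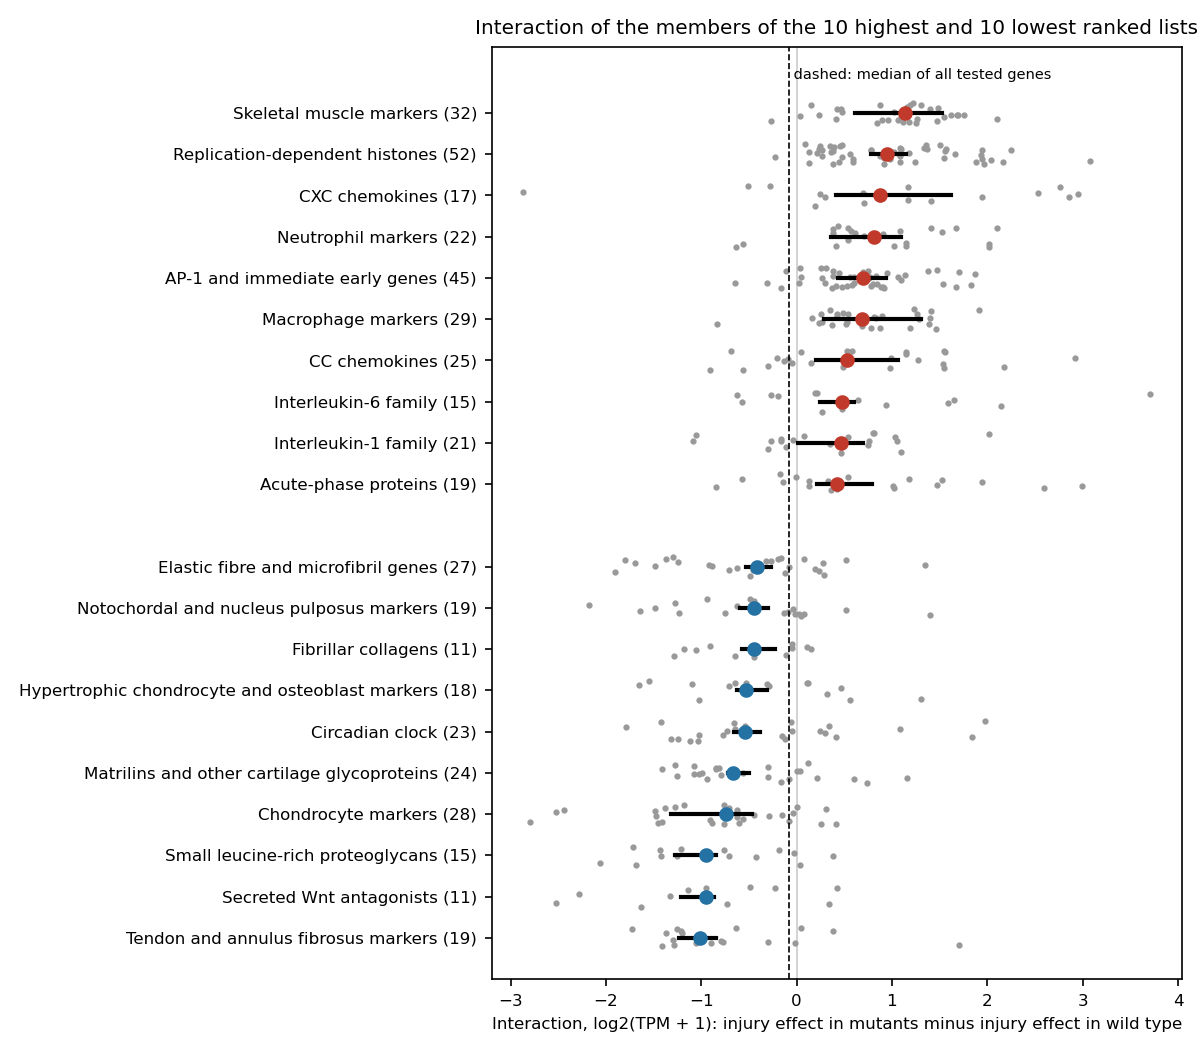
Interaction of every tested member (grey) of the 10 highest and 10 lowest ranked lists, with the list median (coloured), the range of that median when each mouse is left out in turn (black bar) and the number of tested members in brackets. The dashed line is the median of all tested genes, -0.08, and members of 1 list spread widely, from -2.87 to 2.95 in CXC chemokines.

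The response of each injured mouse was taken as the median over a list of its log2(TPM + 1) minus the mean of the intact mice of its genotype. In the chemokine, leukocyte and cytokine lists, injured wild-type mice 1 and 2 responded little and mice 3 and 4 responded within or near the range of the mutants. For CXC chemokines the responses were 2.96, 4.10, 2.79, 2.45 and 2.00 in mutants 1 to 5 and 0.28, 0.43, 3.62 and 2.52 in wild-type mice 1 to 4. For the small leucine-rich proteoglycans they were -1.0, -1.07, -0.99, -0.85 and -0.99 in mutants and -0.03, 0.00, -0.44 and 0.01 in wild type. In the first list the genotypes overlapped, and in the second every mutant lay below every wild-type mouse. Over all 93 lists, every mutant response lay above every wild-type response in 2 lists (histones and acute-phase proteins), below in 10, and the genotypes overlapped in 81. Responses are relative to the intact mice of a genotype, so the levels of injured mice can overlap where their responses do not. Among single genes, 609 of those tested (2.52%) had every mutant response above every wild-type response and 1511 (6.25%) had every mutant response below. In the 20 described lists, wild-type mouse 1 fell outside the mutant range in all but 2 and wild-type mouse 3 lay within it in 10.

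**Figure D3:**
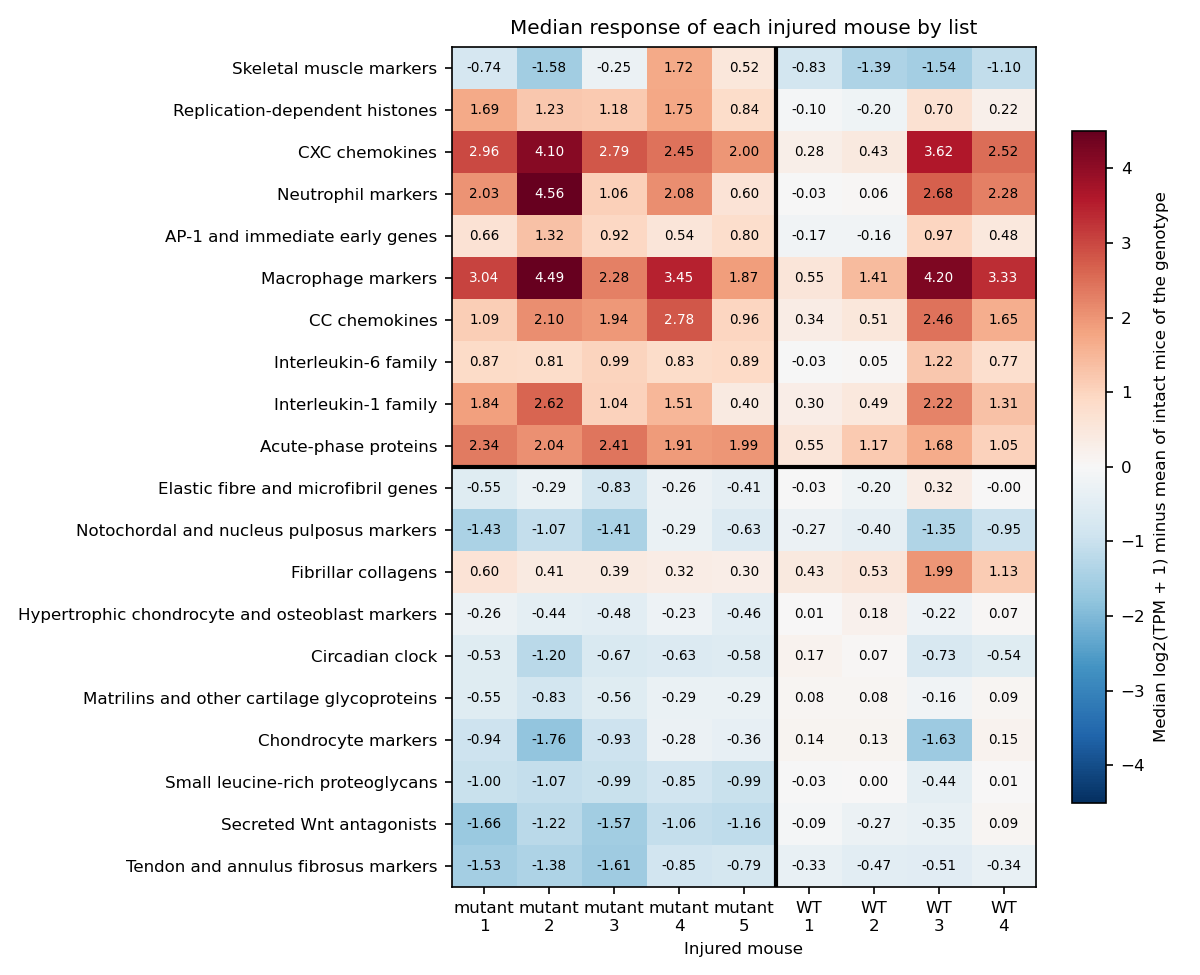
Rows are the 20 described lists, columns the 5 injured mutants and 4 injured wild-type (WT) mice, and each cell gives the median response on the log2(TPM + 1) scale relative to intact mice of the same genotype. Wild-type mice 1 and 2 are paler than mice 3 and 4 in the rows of both chemokine families, both interleukin families, neutrophils and macrophages, but not in the acute-phase row, where mouse 2 (1.17) exceeds mouse 4 (1.05), and all 4 are pale in those of small leucine-rich proteoglycans, Wnt antagonists and tendon markers.

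CXC chemokines attract neutrophils and other leukocytes through G-protein-coupled receptors. Of 22 listed genes 17 were tested, and their median injury effect was 1.78 in wild type and 2.65 in mutants. In mutants 11 rose and 1 fell, against 13.1% and 17.7% of all tested genes. In wild type none was called, against 0.107% higher and 0.00827% lower of all tested genes. At an unadjusted interaction p under 0.05 stood 1 higher (Cxcl3) and 1 lower (Cxcl13). Each is 5.9% of the list, against 2.2% and 5.98% of all tested genes. Cxcl3, a neutrophil attractant, lay at 41.2, 69.7, 31.8, 11 and 12.1 TPM in injured mutants 1 to 5 and at 0.183, 0.423, 9.04 and 8.55 TPM in injured wild-type mice 1 to 4. In the 7 intact mice it did not exceed 0.116 TPM. Every injured mutant was above every injured wild-type mouse, and the interaction was 2.95 ± 1.08 (SE; limma, adjusted p = 0.503). The neighbouring Cxcl1 and Cxcl2, which attract neutrophils too, had interactions of 2.76 ± 2.06 and 2.86 ± 2.06 (SE). Cxcl1 lay at 222, 772, 528, 74.6 and 106 TPM in injured mutants and at 2.05, 2.76, 269 and 277 TPM in injured wild type, so the genotypes overlapped. Cxcl13, a B cell attractant, went the other way: 1.05, 20.7, 1.86, 1.81 and 1.09 TPM in injured mutants and 17, 17.7, 7.6 and 11.9 TPM in injured wild type. In intact mutants it was spread from 5.91 to 73.6 TPM, and its interaction was -2.87 ± 1.23 (SE). The list median ranged from 0.41 without wild-type injured mouse 2 to 1.62 without wild-type injured mouse 3, and was 1.6 with the mutant libraries named A8 alone and 0.35 with those named M alone.

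The promoter of Cxcl3, the leading member of this list, is shown because its window holds a match to an NF-kappaB motif, the binding site of a transcription factor of inflammation. The sequence is from RefSeq on GRCm38.p6 and spans the start of the gene, 5′ to 3′ on the strand of the gene, with the match in capitals.
Cxcl3 (chr5:90785851-90786150, plus strand): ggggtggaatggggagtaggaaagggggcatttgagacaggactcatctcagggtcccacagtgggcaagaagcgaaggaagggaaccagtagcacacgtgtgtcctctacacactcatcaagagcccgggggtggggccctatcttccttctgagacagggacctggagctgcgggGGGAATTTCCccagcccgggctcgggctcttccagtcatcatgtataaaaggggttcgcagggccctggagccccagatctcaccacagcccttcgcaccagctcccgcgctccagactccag
The NF-kappaB motif, searched on both strands, was found in 3 of the 13 tested CXC genes with a promoter in the table: Cxcl1, Cxcl2 and Cxcl3. Of 32851 promoters of the same length 0.32% held it. A gene counts if any of its windows matches, while the share is over single windows, so the measures are not alike. The AP-1 motif TGANTCA was found in 2 of the 13 (Cxcl10 and Ppbp), against 7.81% of all promoters. A match is a run of letters and not a measured binding site.

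CC chemokines attract monocytes and other leukocytes. Of 25 tested members 14 rose and 1 fell in mutants, against 13.1% and 17.7% of all tested genes. None was called in wild type, against 0.107% higher and 0.00827% lower of all tested genes. Median effects were 1.64 in wild type and 2.17 in mutants. Ccl2, the main monocyte attractant, lay at 214, 306, 330, 90.7 and 64.2 TPM in injured mutants and at 10.1, 9.11, 107 and 67.5 TPM in injured wild type. Its intact levels were 1.09 to 3.28 TPM, and the interaction was 2.92 ± 1.11 (SE; limma, adjusted p = 0.507). Mutants 1 to 3 were above all 4 wild-type mice, and mutants 4 and 5 fell within the wild-type range. Ccl7, encoded beside Ccl2 on chromosome 11, had an interaction of 2.18 ± 1.01 (SE) with the same overlap of mice. The member with the lowest value was Ccr10, a receptor of skin-homing lymphocytes, at -0.91. The list median was 0.53, 0.20 to 1.06 when mice were left out, and 0.30 with the mutant libraries named M alone.

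Macrophages and neutrophils are the leukocytes these chemokines attract. Of 29 tested macrophage markers 23 rose and 1 fell in mutants, and of 22 tested neutrophil markers 11 rose. Over all tested genes 13.1% rose and 17.7% fell in mutants. In wild type 1 neutrophil marker was called, Lcn2, which has sources other than neutrophils. The median injury effects were 2.29 and 2.97 for macrophage markers and 1.34 and 2.11 for neutrophil markers, in wild type and mutants in that order. Cd68, a lysosomal macrophage protein, lay at 258, 930, 166, 293 and 128 TPM in injured mutants and at 61.6, 76, 505 and 259 TPM in injured wild type, so wild-type mice 3 and 4 lay within the mutant range and mice 1 and 2 below it. S100a8, a neutrophil calcium-binding protein, lay at 28.3, 232, 10.1, 20.6 and 2.26 TPM in injured mutants and at 0, 0.533, 38.6 and 42.3 TPM in injured wild type. No neutrophil marker had an unadjusted interaction p under 0.05, and in the macrophage list only Mertk did. Mertk, a receptor for the uptake of dying cells, was the lowest member at -0.83 ± 0.33 (SE) and fell in mutants from 50.5 ± 13.3 to 28.2 ± 8.36 TPM (SD, n = 4 and 5; limma, adjusted p = 0.00845). In wild type it lay at 47.3 ± 3.3 TPM in intact and 47.5 ± 6.52 TPM in injured mice (SD, n = 3 and 4). In bulk tissue, fewer cells of a type and less RNA per cell cannot be told apart, here and in all marker lists. The neutrophil median of 0.81 was 0.36 without injured mutant 2, and the macrophage median of 0.69 was 0.29 without injured wild-type mouse 1 and 1.31 without injured wild-type mouse 3. With the mutant libraries named A8 alone the medians were 2.04 for neutrophil and 1.53 for macrophage markers, and with those named M alone 0.19 and 0.41.

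The interleukin-6 family signals through the shared receptor gp130, encoded by Il6st. Its ligands had a median interaction of 0.79 over 10 tested genes and its receptors -0.19 over 5. Il11, a cytokine of stromal cells that is linked to fibrosis, had the largest interaction of all members described here, 3.71 ± 1.18 (SE; limma, adjusted p = 0.488). It lay at 657, 149, 780, 370 and 577 TPM in injured mutants, at 7.48, 17.3, 149 and 92.8 TPM in injured wild type and at 1.08 to 4.22 TPM in intact mice. Mutant 2 matched wild-type mouse 3, and the other 4 mutants were above all wild-type mice. Il6ra, the receptor subunit specific for interleukin-6, was tight: 35, 37.7, 36.9, 38.3 and 36.2 TPM in injured mutants against 23.7, 24.5, 30.5 and 24.3 TPM in injured wild type. The interaction of Il6ra was 0.52 ± 0.17 (SE; limma, adjusted p = 0.506), with no overlap of the injured mice. Il6 and Lif rose in mutants and had interactions of 1.59 ± 0.86 and 2.14 ± 1.26 (SE). Cntf, the ciliary neurotrophic factor gene, was the lowest member at -0.62. Of 15 tested members 9 rose and 2 fell in mutants, against 13.1% and 17.7% of all tested genes. The list median of 0.48 ranged from 0.25 to 0.60 when mice were left out and was 0.26 with the mutant libraries named M alone.

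The interleukin-1 family had a positive median, 0.47, but its 2 members with an unadjusted interaction p under 0.05 were both lower in mutants. Il33, a nuclear alarmin, lay at 21.5, 34.8, 21.1, 40.4 and 49.7 TPM in injured mutants, at 63.7, 55.8, 38.3 and 48 TPM in injured wild type, and at 65.1 to 139 TPM in intact mice. Its interaction was -1.09 ± 0.40 (SE; limma, adjusted p = 0.506). Il18, a cytokine released by inflammasomes, fell in mutants from 51.2 ± 12.8 to 20.3 ± 4.85 TPM (SD, n = 4 and 5; limma, adjusted p = 0.00371), with an interaction of -1.05 ± 0.45 (SE). In both, the highest injured mutants overlapped the lowest injured wild-type mice. The highest member was the decoy receptor Il1r2, at 2.02. Il1b itself lay at 24.8, 311, 19.7, 32.5 and 2.96 TPM in injured mutants and at 3.52, 3.69, 43.1 and 42.1 TPM in injured wild type, with an interaction of 1.10 ± 1.64 (SE). Without injured mutant 2 the list median was 0.01, and with the mutant libraries named M alone it was -0.11.

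Acute-phase proteins are secreted in inflammation, by the liver and by local cells. Of 19 tested members 13 rose in mutants and 2 in wild type, against 13.1% and 0.107% of all tested genes. Every injured mutant had a higher list response (1.91 to 2.41) than every injured wild-type mouse (0.55 to 1.68). The median levels, as log2(TPM + 1), overlapped. They were 4.10, 5.63, 4.12, 3.77 and 3.89 in injured mutants and 1.96, 2.41, 4.90 and 3.77 in injured wild type. Of single members, 0 had every mutant response above every wild-type response and 1 had every mutant response below (2.52% and 6.25% of all tested genes). At an unadjusted interaction p under 0.05 stood 4 members, all higher in mutants (21.1%, against 2.2% of all tested genes). Lbp, which carries bacterial lipopolysaccharide, lay at 1284, 204, 1154, 663 and 1005 TPM in injured mutants, at 194, 320, 249 and 151 TPM in injured wild type and at 82.2 to 119 TPM in intact mice. Mutant 2 lay among the wild-type mice and the other 4 mutants lay above them, and the interaction was 1.52 ± 0.69 (SE; limma, adjusted p = 0.559). Saa1 and Saa2, serum amyloid genes with near-identical sequences whose reads could be shared, had interactions of 2.99 ± 1.26 and 2.60 ± 1.04 (SE). Saa1 lay at 286, 141, 288, 86.7 and 70.5 TPM in injured mutants and at 2.71, 8.67, 91.3 and 54.7 TPM in injured wild type. Lcn2, an iron-binding protein, was 1 of 2 members called in wild type, and its injury effects were 3.89 ± 0.55 in wild type and 4.42 ± 0.48 in mutants (SE; limma, adjusted p = 0.00687 and 0.000117). The difference between these effects was 0.54 ± 0.73 (SE), within its error. The list median of 0.42 was 0.97 with the mutant libraries named A8 alone and 0.14 with those named M alone.

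AP-1 and immediate early genes encode transcription factors and feedback regulators that cells induce within minutes of a stimulus. Of 45 tested members 8 had an unadjusted interaction p under 0.05, all higher in mutants (17.8%, against 2.2% of all tested genes). With injury 22 rose and 2 fell in mutants, against 13.1% and 17.7% of all tested genes. Fosl2, a subunit of AP-1, lay at 215, 168, 175, 151 and 167 TPM in injured mutants, at 107, 125, 135 and 122 TPM in injured wild type and at 81.6 to 95.5 TPM in intact mice. All injured mutants were above all injured wild-type mice, and the interaction was 0.48 ± 0.14 (SE; limma, adjusted p = 0.488). Junb, another subunit, lay at 230, 268, 450, 287 and 339 TPM in injured mutants and at 79.2, 88.5, 236 and 173 TPM in injured wild type. Intact wild-type mouse 1 stood apart with 243 TPM, against 58.3 to 90.9 TPM in the other intact mice, and the interaction was 1.67 ± 0.63 (SE). Injured mutant 1 and injured wild-type mouse 3 were close, and the other mutants were above all wild-type mice. Gadd45b, a stress-response gene, had an interaction of 0.91 ± 0.34 and Ier3, a survival gene, the highest of the list, 1.87 ± 0.86 (SE). Fos was uneven before injury, from 20.9 to 1079 TPM in intact wild type and from 23.2 to 393 TPM in intact mutants, and had an interaction of 0.95 ± 1.95 (SE). Dusp1, a phosphatase that ends MAP kinase signals, was the lowest at -0.65.

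Replication-dependent histones package newly made DNA, and most of their messages end without a poly(A) tail. The labels name poly(A) RNA as the molecule although the protocol depletes ribosomal RNA, and how far these messages were captured was not tested. Of 62 listed genes 52 were tested, 51 of them (98.1%) with an interaction above 0, against 41.8% of all tested genes. At an unadjusted p under 0.05 stood 20, all higher in mutants (38.5%, against 2.2% of all tested genes). In mutants 30 rose and none fell, against 13.1% and 17.7% of all tested genes. In wild type none was called. Many of these genes are close to identical in sequence, so reads could be split between copies, and the members are not independent. The responses were 1.69, 1.23, 1.18, 1.75 and 0.84 in mutants and -0.10, -0.20, 0.70 and 0.22 in wild type, without overlap. Hist1h1a, a linker histone, lay at 29.3, 25.7, 18.6, 34.3 and 16.1 TPM in injured mutants, at 11, 10.4, 16 and 20 TPM in injured wild type, at 4.83 to 10.1 TPM in intact mutants and at 11.1 to 12.1 TPM in intact wild type. Mutants 3 and 5 overlapped wild-type mice 3 and 4 in TPM, and the interaction was 1.36 ± 0.40 (SE; limma, adjusted p = 0.488). The intact levels differed as well as the injured ones: over the list the median difference between mutants and wild type was -0.42 in intact discs and 0.53 in injured discs. Lists of other genes of dividing cells had values near 0. The G2/M list, 45 tested genes of mitosis, had median injury effects of 1.18 in wild type and 1.24 in mutants, 38 members rose in mutants, and its median interaction was 0.02. The G1/S and replication list had a median interaction of 0.02 as well, over 39 tested genes, and no member of either list had an unadjusted interaction p under 0.05.

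Skeletal muscle markers held the highest median, and the genotypes differed in intact discs (mutants minus wild type, median -1.09) rather than in injured discs (-0.03). No member was called in either genotype, and 31 of 32 tested members had an interaction above 0. The mean log2(TPM + 1) of the list was 4.997, 4.027 and 3.303 in intact wild-type mice 1 to 3, against 2.999 to 3.087 in intact mutants. In injured discs it was 1.498 to 4.518 in mutants and 2.591 to 3.375 in wild type. Ckm, the creatine kinase of muscle, lay at 44.5, 22.9 and 7.06 TPM in intact wild type, 5.58 to 9.93 TPM in intact mutants and 43.2 TPM in injured mutant 4. Without intact wild-type mouse 1 the list median was 0.61, and with the mutant libraries named A8 alone it was 0.03. The muscle score moves with genotype among intact discs, so it was entered as a covariate: the count of genes at an unadjusted interaction p under 0.05 was then 678 higher and 2402 lower, and the medians of the other 19 described lists kept their sign.

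**Figure D4:**
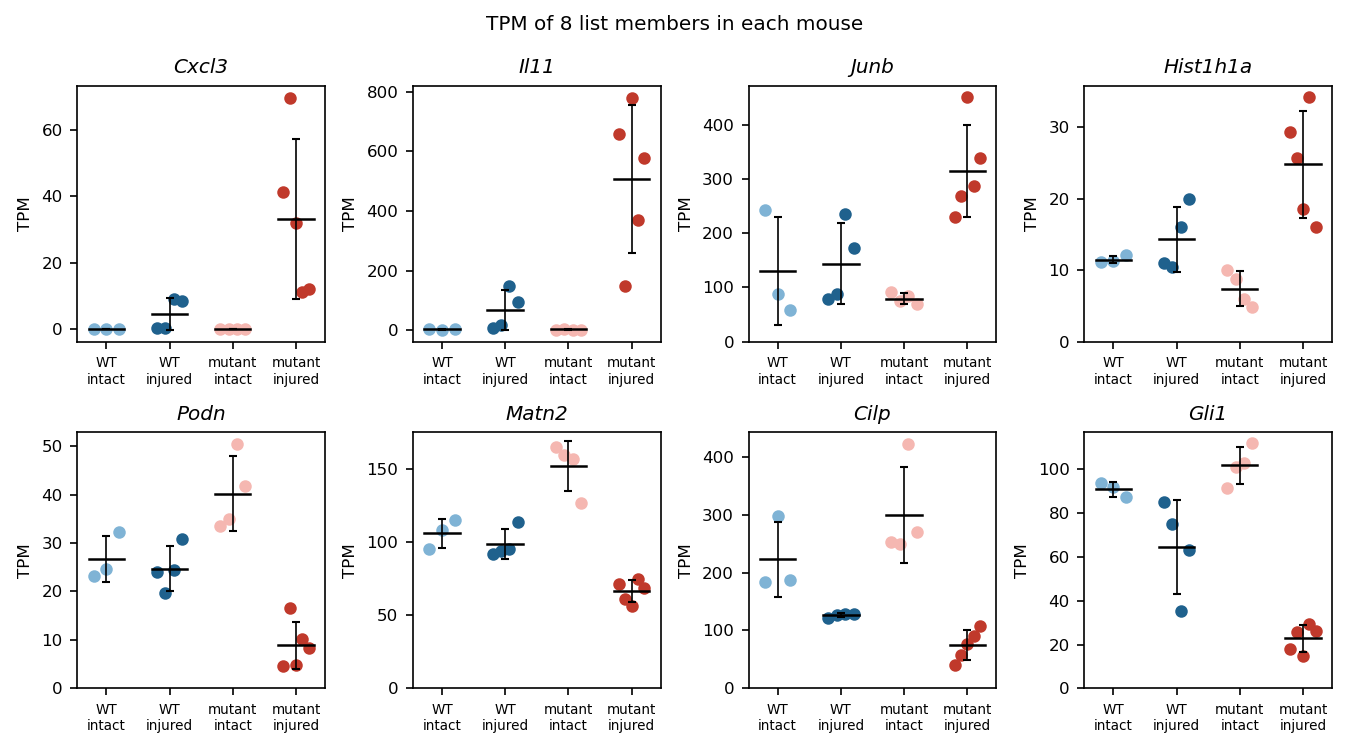
TPM of 8 list members in each mouse (points), by genotype and treatment, with the group mean (bar) and SD (whisker) on linear axes. The mean of injured mutants is the highest for Cxcl3, Il11, Junb and Hist1h1a and the lowest for Podn, Matn2, Cilp and Gli1.

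Small leucine-rich proteoglycans bind collagen and set the width of its fibrils. Of 17 listed genes 15 were tested. In mutants 8 fell and 3 rose, against 17.7% and 13.1% of all tested genes, and none was called in wild type. Of the tested members 7 had an unadjusted interaction p under 0.05, all lower in mutants (46.7%, against 5.98% of all tested genes). Podn, which encodes podocan, lay at 4.57, 16.5, 4.87, 10.2 and 8.37 TPM in injured mutants and at 24, 19.6, 24.5 and 30.8 TPM in injured wild type. Its intact levels were 33.6, 34.9, 50.5 and 41.7 TPM in mutants and 23.2, 24.7 and 32.2 TPM in wild type. Every injured mutant was below all 11 other mice, and the interaction was -2.06 ± 0.45 (SE; limma, adjusted p = 0.456), on chromosome 4 at 108014791 to 108096445 (GRCm38). Aspn, which encodes asporin of the annulus, lay at 89.6, 99.2, 29.6, 67.9 and 90 TPM in injured mutants and at 136, 171, 236 and 167 TPM in injured wild type, with an interaction of -1.43 ± 0.48 (SE). Bgn, the biglycan gene, was at 1413, 551, 1142, 935 and 1088 TPM in injured mutants and at 1450, 1695, 1292 and 1325 TPM in injured wild type, with an interaction of -0.95 ± 0.33 (SE). Only mutant 1 reached the wild-type range of Bgn. Ogn and Ecm2 had interactions of -1.72 ± 0.74 and -1.42 ± 0.59 (SE). Among the most abundant members, Dcn (decorin) rose in mutants from 2378 ± 391 to 7000 ± 2063 TPM (SD, n = 4 and 5; limma, adjusted p = 0.0023), and its interaction was 0.38 ± 0.42 (SE). Chad (chondroadherin) fell in mutants from 17881 ± 458 to 3055 ± 1440 TPM and lay at 15435 ± 2048 and 5076 ± 2986 TPM in intact and injured wild type (SD), with an interaction of -0.76 ± 0.84 (SE).

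Matrilins and other cartilage glycoproteins hold the matrix network together. Of 24 tested members 8 had an unadjusted interaction p under 0.05, all lower in mutants (33.3%, against 5.98% of all tested genes). Matn2 (matrilin-2, chromosome 15 at 34306677 to 34436273, GRCm38) lay at 71.3, 61.1, 56.3, 74.8 and 68.9 TPM in injured mutants and at 91.9, 93.7, 95.4 and 114 TPM in injured wild type. Intact levels were 165, 160, 157 and 127 TPM in mutants and 95.4, 108 and 115 TPM in wild type. Injured mutants were the lowest and intact mutants the highest of the 4 groups, without overlap, and the interaction was -1.08 ± 0.16 (SE; limma, adjusted p = 0.106). Thbs2, thrombospondin-2, fell in mutants from 248 ± 37.3 to 104 ± 18.8 TPM (SD, n = 4 and 5; limma, adjusted p = 0.000233), against 226 ± 36.6 and 180 ± 12.8 TPM in intact and injured wild type (SD). Cilp, a protein of the intermediate layer of cartilage, lay at 40.7, 57.5, 76.3, 90.3 and 107 TPM in injured mutants and at 121, 126, 128 and 129 TPM in injured wild type, with an interaction of -1.25 ± 0.40 (SE). Sned1 had an interaction of -0.81 ± 0.21 (SE). Prg4, which encodes the lubricant lubricin, was the highest member at 1.16 ± 0.69 (SE): it lay at 5670, 1627, 9219, 5658 and 10786 TPM in injured mutants and at 1926, 2896, 1529 and 1579 TPM in injured wild type. Mutant 2 lay within the wild-type range of Prg4 and the other 4 mutants above it. The wound glycoproteins Tnc and Postn rose in mutants and had interactions of 0.74 and 0.21.

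Tendon and annulus fibrosus markers were the lowest ranked list. Of 19 tested members 12 fell and 3 rose in mutants, against 17.7% and 13.1% of all tested genes. At an unadjusted interaction p under 0.05 stood 7, all lower in mutants (36.8%, against 5.98% of all tested genes). The responses were -1.53, -1.38, -1.61, -0.85 and -0.79 in mutants and -0.33, -0.47, -0.51 and -0.34 in wild type. Every mutant response lay below every wild-type response, but the median levels, as log2(TPM + 1), overlapped. They were 7.28, 7.43, 7.40, 7.65 and 7.70 in injured mutants and 7.87, 7.52, 7.21 and 7.44 in injured wild type. In intact discs the list lay higher in mutants, by a median of 0.37. With the mutant libraries named M alone the list median was -0.77. Scx, the scleraxis transcription factor of tendon, lay at 15.5, 22.5, 20.7, 21.7 and 19.3 TPM in injured mutants and at 16.9, 19.6, 31 and 30.5 TPM in injured wild type. Its intact levels were 26.6 to 33.1 TPM in mutants and 12 to 23.5 TPM in wild type, so most of its interaction of -1.01 ± 0.32 (SE; limma, adjusted p = 0.488) lay in the intact groups (0.76 higher in mutants) and not in the injured ones (-0.25). Tnmd, tenomodulin, had the lowest interaction, -1.73 ± 0.82 (SE). Egr1, an immediate early gene that is also a tendon factor, was the highest member at 1.70. Cilp, Comp, Col1a2 and Adamtsl2 stand in this and in other matrix lists, so those lists are not independent.

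Fibrillar collagens form the rope-like fibres of the annulus. Of 11 tested members 2 rose and none fell in mutants, against 13.1% and 17.7% of all tested genes. None was called in wild type, against 0.107% higher and 0.00827% lower of all tested genes. The list response was 0.30 to 0.60 in mutants and 0.43, 0.53, 1.99 and 1.13 in wild type. Col1a2, the second chain of collagen I, lay at 449, 434, 183, 242 and 231 TPM in injured mutants and at 327, 326, 1036 and 570 TPM in injured wild type, with an interaction of -1.29 ± 0.55 (SE; limma, adjusted p = 0.545). Injured mutants 3 to 5 were below all wild-type mice, and mutants 1 and 2 lay between wild-type mice 1 and 2 and mice 3 and 4. Without injured wild-type mouse 3 the list median was -0.23 instead of -0.45, and with the mutant libraries named A8 alone it was -0.06. Col3a1 and Col5a2, of the looser collagen of healing tissue, rose in mutants, and their interactions were -0.65 and -0.11.

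Elastic fibre and microfibril genes had 7 of 27 tested members with an unadjusted interaction p under 0.05, all lower in mutants. That is 25.9% of the list, against 5.98% of all tested genes. Ltbp4, which binds latent TGF-beta and helps to assemble elastin, lay at 25.1, 60.5, 41.7, 72.6 and 74.8 TPM in injured mutants and at 131, 112, 108 and 105 TPM in injured wild type. Intact levels were 126 to 209 TPM, no injured mutant reached any other mouse, and the interaction was -1.30 ± 0.43 (SE; limma, adjusted p = 0.488). Efemp1, fibulin-3, had the lowest value, -1.90 ± 0.64 (SE). The list was not uniform: Emilin2, an elastin interface protein, was the highest at 1.35, and Fbn1, the fibrillin-1 gene, rose in mutants with an interaction of -0.08.

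Most secreted Wnt antagonists bind Wnt ligands or their receptors outside the cell. Members were listed by family, and whether each of them, Dkk3 included, acts on Wnt here was not tested. Of 17 listed genes 11 were tested. In mutants 6 fell and 2 rose, against 17.7% and 13.1% of all tested genes, and none was called in wild type. Dkk3, a member of the Dickkopf family, lay at 23.1, 28.7, 25.2, 60.4 and 39.3 TPM in injured mutants, at 122, 112, 79 and 62.5 TPM in injured wild type and at 106 to 156 TPM in intact mice. Every injured mutant was lower than every injured wild-type mouse, mutant 4 by a small margin, and the interaction was -1.33 ± 0.41 (SE; limma, adjusted p = 0.488). Frzb, which protects cartilage, lay at 120, 253, 99, 243 and 224 TPM in injured mutants and at 824, 722, 194 and 738 TPM in injured wild type, where mouse 3 overlapped the mutants. Notum, which inactivates Wnt by removing its lipid, had an interaction of -1.14 ± 0.39 (SE), with responses that did not overlap. Sostdc1 and Sfrp5 had interactions of -2.28 ± 0.97 and -2.52 ± 1.08 (SE). Sfrp1 and Sfrp2 rose in mutants, with interactions of -0.23 and 0.34. The list of Wnt ligands, receptors and targets had a median of -0.14 over 47 tested genes, with 1 higher and 5 lower at an unadjusted p under 0.05. These are 2.1% and 10.6% of that list, against 2.2% and 5.98% of all tested genes.

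The BMP and GDF list as a whole ranked 60 of 93, with a median of -0.08, equal to that of all genes. At an unadjusted interaction p under 0.05 it had 3 higher and 7 lower members (7.3% and 17.1%, against 2.2% and 5.98% of all tested genes). Its roles differed in their medians. Among secreted antagonists, which bind BMP ligands outside the cell, 6 of 15 tested genes had an unadjusted interaction p under 0.05, all lower in mutants, and 10 of them fell in mutants. Their median interaction was -0.47, against 0.70 for 13 tested ligands and 0.02 for 13 receptors and effectors. Grem1, gremlin-1, lay at 336, 477, 112, 505 and 344 TPM in injured mutants, at 1547, 1312, 394 and 2545 TPM in injured wild type and at 1392 to 2820 TPM in intact mice. Its interaction was -2.07 ± 0.81 (SE; limma, adjusted p = 0.521), and only wild-type mouse 3 lay in the range of the injured mutants. Among ligands, Bmp2 rose in mutants from 22.9 ± 7.25 to 219 ± 113 TPM (SD, n = 4 and 5; limma, adjusted p = 0.00209) and lay at 14.8, 15.2, 137 and 94.1 TPM in injured wild type, with an interaction of 1.61 ± 0.99 (SE).

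Hedgehog signalling runs through the receptor Patched, the transducer Smoothened and the GLI transcription factors, in the primary cilium. The list of 65 tested genes ranked outside the 10 lowest (median -0.21), but 12 members had an unadjusted interaction p under 0.05, all lower in mutants, 9 of them among 19 ligands, receptors and targets and 3 among 46 cilium genes (6.5%, against 5.98% of all tested genes). In mutants 12 of the 19 fell and none rose, against 17.7% and 13.1% of all tested genes. Gli1, the target gene most used to read the pathway (chromosome 10 at 127329882 to 127341974, GRCm38), lay at 18, 25.5, 14.9, 29.6 and 26.4 TPM in injured mutants. In injured wild type it lay at 85.1, 75.2, 35.4 and 63.2 TPM and in intact mice at 87.2 to 112 TPM. All injured mutants were below all other mice, and the interaction was -1.59 ± 0.37 (SE; limma, adjusted p = 0.488). Gli2, Smo and Ptch1 had interactions of -1.11 ± 0.31, -1.04 ± 0.39 and -0.92 ± 0.36 (SE). Injured wild-type mouse 3, which had the largest wild-type response in the macrophage list, was the lowest of the injured wild-type mice for Gli1, Gli2, Smo and Ptch1.

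Cartilage and notochordal genes were low in the ranking but varied between mice. Of 28 tested chondrocyte markers 13 fell and 2 rose in mutants, against 17.7% and 13.1% of all tested genes. At an unadjusted interaction p under 0.05 stood 3, all lower in mutants (10.7%, against 5.98% of all tested genes). The responses were -0.94, -1.76, -0.93, -0.28 and -0.36 in mutants and 0.14, 0.13, -1.63 and 0.15 in wild type, so wild-type mouse 3 lay with the mutants. Without it the median was -1.32 instead of -0.74. Ucma, a cartilage matrix protein, lay at 4.1, 46.6, 8.31, 36.7 and 19.9 TPM in injured mutants and at 87.6, 68.3, 20.4 and 237 TPM in injured wild type, with an interaction of -2.80 ± 1.08 (SE; limma, adjusted p = 0.511). Acan had an interaction of -0.04 ± 0.47 (SE), and Sox9 was the highest member at 0.41. Of 19 tested notochordal markers 8 fell and 2 rose in mutants, against 17.7% and 13.1% of all tested genes. Only Foxf1 had an unadjusted interaction p under 0.05, on the lower side (5.3%, against 5.98% of all tested genes). T, the brachyury gene of the notochord, lay at 21.5, 593, 115, 1568 and 721 TPM in injured mutants and at 2954, 2265, 760 and 1069 TPM in injured wild type, with an interaction of -2.18 ± 1.52 (SE). Among 18 tested hypertrophic and osteoblast markers, Alpl, the alkaline phosphatase of mineralizing cells, had the lowest value at -1.65 ± 0.67 (SE) and Mmp13, a collagenase, the highest at 1.31.

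The clock list had leading members in both directions. As background, the factors encoded by Arntl, Clock and Npas2 activate genes with E-box motifs, among them the Per genes and the output factors Tef and Dbp. The receptors encoded by the Nr1d genes act on another element, found in Arntl and Nfil3. Of 23 tested members 3 had an unadjusted interaction p under 0.05 on the higher side (Nfil3, Arntl and Npas2) and 7 on the lower side (among them Per1, Tef, Nr1d2, Dbp, Per3 and Fbxl21). The higher and lower members are 13.0% and 30.4% of those tested, against 2.2% and 5.98% of all tested genes. In mutants 6 rose and 12 fell, against 13.1% and 17.7% of all tested genes, and in wild type none was called. Arntl lay at 34, 25.5, 48.8, 34.2 and 38.2 TPM in injured mutants, at 10.8, 6.5, 24.2 and 21.6 TPM in injured wild type, at 7.58 to 17.8 TPM in intact mutants and at 10.9 to 25.9 TPM in intact wild type. Its interaction was 1.84 ± 0.58 and that of Npas2 1.98 ± 0.65 (SE; limma, adjusted p = 0.488 for both). Per1 lay at 86.1, 95.2, 82.7, 123 and 122 TPM in injured mutants, at 339, 278, 87.9 and 130 TPM in injured wild type, and at 348 to 385 and 250 to 282 TPM in intact mutants and intact wild type. Tef lay at 50.4, 45.6, 56.7, 82 and 74 TPM in injured mutants and at 157, 152, 67.8 and 77.9 TPM in injured wild type. For Per1 and Tef, wild-type mice 3 and 4 lay in or next to the range of the mutants and mice 1 and 2 were at or above the levels of intact wild type, with interactions of -1.32 ± 0.49 and -1.03 ± 0.39 (SE). Nfil3, a repressor, was called in mutants, from 8.74 ± 1.57 to 43.1 ± 9.88 TPM (SD, n = 4 and 5; limma, adjusted p = 7.12e-05), and lay at 14.9, 18.8, 27.1 and 21.4 TPM in injured wild type, every mouse below every injured mutant. The list responses were -0.53 to -1.20 in mutants and 0.17, 0.07, -0.73 and -0.54 in wild type. With the mutant libraries named M alone the list median was -0.22 instead of -0.54.

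**Figure D5:**
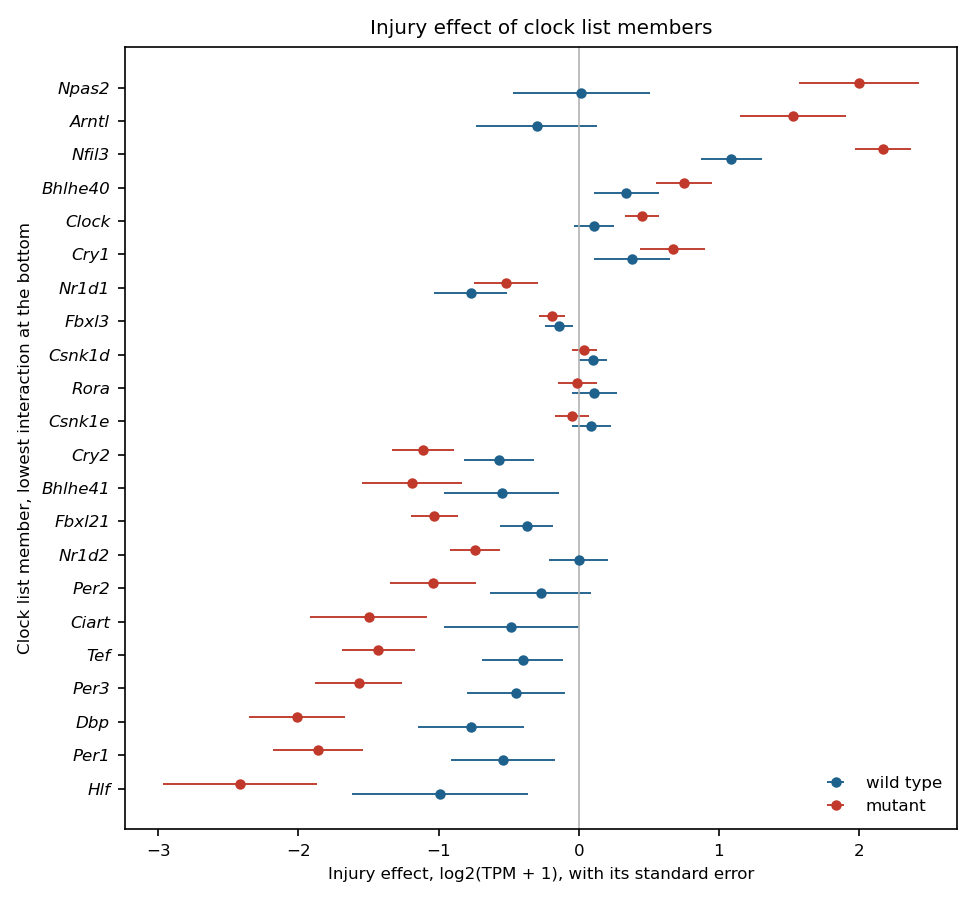
Injury effect of most of the tested clock members in wild type (blue) and mutants (red), on the log2(TPM + 1) scale with the standard error, ordered by the interaction. Npas2 and Arntl lie to the right of 0 in mutants and near it in wild type, while Per1, Tef and Dbp lie further to the left in mutants.

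Promoters are shown for 2 clock members that were higher and 2 that were lower, each with a match. A different motif is marked in each pair. The genes and motifs were picked as examples, and a link between motif and direction was not tested. The capitals mark TAGGTCA or its complement, the element of the Nr1d receptors, in Arntl and Nfil3, and the E-box CACGTG in Per1 and Tef. All are RefSeq windows on GRCm38.p6 of the kind described above, and where the table held 2 start sites for a gene, a window with a match is given (both windows of Tef hold one).
Arntl (chr7:113207261-113207560, plus strand): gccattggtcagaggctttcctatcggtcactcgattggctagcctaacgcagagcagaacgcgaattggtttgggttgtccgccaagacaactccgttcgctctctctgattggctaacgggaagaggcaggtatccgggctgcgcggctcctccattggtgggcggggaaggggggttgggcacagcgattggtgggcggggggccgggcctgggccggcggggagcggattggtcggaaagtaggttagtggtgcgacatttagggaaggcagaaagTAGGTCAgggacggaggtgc
Nfil3 (chr13:52980990-52981289, minus strand): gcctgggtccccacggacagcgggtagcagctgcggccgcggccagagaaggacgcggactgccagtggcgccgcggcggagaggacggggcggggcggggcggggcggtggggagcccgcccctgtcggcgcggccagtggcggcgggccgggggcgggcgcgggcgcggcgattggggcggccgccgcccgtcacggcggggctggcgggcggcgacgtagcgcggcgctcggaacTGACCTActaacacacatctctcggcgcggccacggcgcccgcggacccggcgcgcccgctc
Per1 (chr11:69098699-69098998, plus strand): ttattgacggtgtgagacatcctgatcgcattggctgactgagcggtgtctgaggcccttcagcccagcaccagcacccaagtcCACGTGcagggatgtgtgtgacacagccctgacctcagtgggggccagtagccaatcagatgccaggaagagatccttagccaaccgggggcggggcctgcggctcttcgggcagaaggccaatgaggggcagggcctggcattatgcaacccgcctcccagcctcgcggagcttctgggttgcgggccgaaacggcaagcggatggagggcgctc
Tef (chr15:81802423-81802722, plus strand): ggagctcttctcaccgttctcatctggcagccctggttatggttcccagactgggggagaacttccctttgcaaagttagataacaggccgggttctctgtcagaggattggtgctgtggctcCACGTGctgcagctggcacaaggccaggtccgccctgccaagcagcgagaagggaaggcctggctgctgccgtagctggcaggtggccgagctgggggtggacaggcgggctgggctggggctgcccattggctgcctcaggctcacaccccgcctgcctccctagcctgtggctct
Searched on both strands, CACGTG was found in 5 of 18 clock members with a promoter in the table (Bhlhe41, Ciart, Cry1, Per1 and Tef), against 7.15% of all 32851 promoters. TAGGTCA was found in 2 of 18 (Arntl and Nfil3), against 2.61%, and the wider TNGGTCA, which includes it, in 5 of 18 (Arntl, Cry2, Nfil3, Per3 and Tef), against 11%. Per3 and Tef, on the lower side, thus hold the wider form too, and Npas2, on the higher side, is not among the members with a match. The D-box TTATGTAA was found in Per3 alone, against 0.938%. A gene counts here if any of its windows matches, while the shares are over single windows. Genes with more than 1 window therefore have more room for a match, and the measures are not alike. No match in a window of this length says only that these letters are not in it. Of further motifs searched, the GLI site GGGTGGTC was found in 0 of 53 Hedgehog and cilium members with a promoter and TGANTCA in 1 of 34 AP-1 list members, and no histone gene had a promoter in the table.

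Over all genes, whatever their list, the 10 with the smallest interaction p on the lower side included Matn2, Podn and Gli1 of the lists above. Ippk, which makes inositol hexakisphosphate, had an interaction of -0.97 ± 0.13 (SE; limma, adjusted p = 0.106). It lay at 31.1, 28.6, 24.9, 31.6 and 28.8 TPM in injured mutants and at 52.2, 48, 39.1 and 45.4 TPM in injured wild type, with intact levels of 64.1 to 73.3 and 51.5 to 57.4 TPM. Its injured mutants were the lowest and its intact mutants the highest, as for Matn2. Piezo2, a mechanically gated channel, lay at 9.67, 22, 12.6, 11 and 10.7 TPM in injured mutants and at 23, 25, 31.6 and 35 TPM in injured wild type, with an interaction of -1.68 ± 0.31 (SE; limma, adjusted p = 0.317). Its intact levels were 31.3 to 39.9 TPM in mutants and 20.1 to 26.2 TPM in wild type. Mutants thus differed from wild type by 0.58 in intact and -1.10 in injured discs. Others were Mir6346, Clec11a, Rasd2 and Dnm1. On the higher side were Hgh1, Pi4k2a, Phlda1, Arl14epl, Emc6, Mir7089, Rps2-ps4, Hist1h4m, Nfil3 and Slc23a2. Of these, Mir7089, a microRNA gene, lay at 0 TPM in every injured wild-type mouse and in some mutants. Arl14epl did not exceed 4.38 TPM and the pseudogene Rps2-ps4 did not exceed 2.42 TPM, so these values lie near the floor. Phlda1, a gene induced by growth factors and stress, lay at 357, 274, 511, 321 and 352 TPM in injured mutants and at 157, 172, 292 and 268 TPM in injured wild type, with an interaction of 1.22 ± 0.32 (SE; limma, adjusted p = 0.488). Its intact levels were 128 to 170 TPM in mutants and 200 to 233 TPM in wild type. Mutants thus differed from wild type by -0.49 in intact and 0.73 in injured discs.

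The interaction can be read as the difference between genotypes in injured discs minus that in intact discs. In several inflammatory lists the intact genotypes were close. The median difference of mutants from wild type was -0.07 for CXC chemokines, 0.02 for macrophage markers and -0.01 for the interleukin-6 family, and in injured discs 1.0, 0.93 and 0.31. In others the intact mutants were lower. The intact and injured differences were -0.20 and 0.73 for neutrophil markers, -0.35 and -0.04 for interferon-stimulated genes, and -0.27 and -0.27 for interferon-gamma targets. In some matrix lists the intact mutants were higher: by 0.37 for tendon and annulus markers, 0.35 for fibrillar collagens and 0.27 for matrilins, against -0.66, -0.25 and -0.40 in injured discs. In other matrix lists the intact difference was smaller: 0.14 for small leucine-rich proteoglycans, 0.05 for heparan sulfate genes, 0.02 for the aggrecan network, 0.00 for basement membrane genes and -0.13 for ADAMTS proteases. The Wnt antagonists lay at 0.01 in intact discs and at -0.56 in injured discs. Over all tested genes the medians were -0.01 and -0.09. The G2/M genes had an injury effect in both genotypes and an interaction near 0. The matrix metalloproteinases, enzymes that degrade matrix, also had a median interaction near 0 (-0.01, and -0.18 to 0.26 when mice were left out). Their median injury effects were 0.87 in wild type and 0.76 in mutants over 19 tested genes. The mice behind these values were uneven. The list responses were 0.01, 0.10, 1.82 and 1.11 in wild-type mice 1 to 4 and 0.71, 1.55, 0.17, 0.78 and 0.33 in mutants 1 to 5.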

How the data were processed

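RNA of tail discs was sequenced after removal of ribosomal RNA, per the labels' protocols, with 1 library for each of 16 mice. The submitters' processing notes name bcl2fastq 2.20 and the GRCm38 genome. The aligner, counter, strand setting and annotation are not given in the sources used here, and the labels name poly(A) RNA as the molecule although the protocol depletes ribosomal RNA. The authors deposited TPM values, one column per mouse.

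Groups were taken from the sample titles. Of the genes, 24188 had 1 TPM or more in 3 or more libraries and were kept, and log2(TPM + 1) was fitted with limma 3.58.1 in R 4.3.3 (4 group means, moderated variances with trend, Benjamini-Hochberg adjustment over all tested genes). The interaction and both injury effects are contrasts of that fit. Their standard errors are printed without moderation, and the p-values are moderated. Lists were summarised with Python 3.11.15, numpy 2.4.6 and pandas 2.3.3 by medians and counts, without a test. The 10 highest and 10 lowest lists are described, with the members of smallest unadjusted interaction p and the highest and lowest member, and the 10 genes of smallest p in each direction over all genes. Further members are named with their values, and some members are counted in their lists but not reported here. The members and lists were chosen with earlier results of these data known. TPM is no count, so no count test was run. Reads per library were inferred from the steps of low values, of which 94.0 to 94.9% were whole within 0.05 of a read. The fit was tested on simulated data. Alternatives covered 12 settings and the omission of each of 16 mice. Replicate numbers do not pair mice across groups. The labels do not say how many cages or litters the mice came from.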

Additional observations from a re-analysis of the deposited data

Results flagged for a closer look

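Of 60 combinations of a described list and a group of 4 or 5 mice, 1 held a mouse far from the others. The median log2(TPM + 1) of the acute-phase list was 5.63 in injured mutant 2, against 4.10, 4.12, 3.77 and 3.89 in injured mutants 1, 3, 4 and 5. Chance alone marks about 1 in 20 such combinations. They share mice and some genes, so they are not separate checks.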

How the results depend on the processing

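With no gene called for the interaction, each value is limited by 3 to 5 mice per group and by the uneven response of injured wild-type mice. Of the alternatives tried, sample weights gave 4 interaction calls, and leaving out 1 mouse gave 0 to 15 (15 without injured wild-type mouse 3). Genes at an unadjusted p under 0.05 on the higher side numbered 873 under median-of-ratios scaling and 1121 with sample weights, and 376 to 1034 without 1 mouse. On the lower side they numbered 2402 with the muscle covariate, 940 under quantile normalization and 2252 with sample weights, and 1023 to 2237 without 1 mouse. The 28 wild-type injury calls became 13 without a variance trend, 17 under median-of-ratios scaling, 2 with the muscle covariate, 7 with A8 mutants only, 11 with no filter, 64 with a pseudocount of 0.1 and 77 with sample weights, and 2 to 452 without 1 mouse (452 without injured wild-type mouse 1, 2 without intact wild-type mouse 1). The 7438 mutant calls became 3583 with A8 and 725 with M mutants only, where fewer mice entered, and 5332 to 7985 without 1 mouse.

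The replicate block gave 0 interaction calls, 508 genes higher and 1188 lower at an unadjusted p under 0.05, 5 wild-type and 6191 mutant calls. Same-numbered mice of different groups had correlations of -0.217 to 0.151 in their deviations from the group mean, so the numbers do not pair them.

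List medians reversed for muscle with the muscle covariate (-1.9e-05, a covariate built from the same list) and for the interleukin-1 family with M mutants only (-0.11). They moved beyond the spread of the mice for muscle (0.03) and fibrillar collagens (-0.06) with A8 mutants only, for the clock (-0.22) and tendon markers (-0.77) with M mutants only, and for hypertrophic markers (-0.18), matrilins (-0.30) and Wnt antagonists (-0.28) with no filter. The muscle covariate raised the medians of neutrophil markers to 1.59, CXC chemokines to 1.46, macrophage markers to 1.10 and the interleukin-1 family to 0.83, and took chondrocyte markers to -1.16. A mean of at least 5 TPM raised CC chemokines to 1.15 and acute-phase proteins to 1.02. With no filter, acute-phase proteins were at 0.21 and notochordal markers at -0.11. Without 1 mouse, matrilins ranged from -0.72 to -0.50 and chondrocyte markers from -1.32 to -0.47. Scaling moved the median of all genes from -0.078 to 0.008 (median-of-ratios) and 0.004 (quantile). The cause of these shifts was not tested.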

Other observations

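Some lists outside the 20 described held more lower than higher members. Among 56 tested semaphorins, ephrins and axon guidance genes, 8 (14.3%) were lower in mutants at an unadjusted interaction p under 0.05 and none was higher, against 5.98% lower and 2.2% higher over all tested genes. Among 36 tested Hox genes 5 (13.9%) were lower and 1 higher. The list medians were -0.25 (-0.13 without injured wild-type mouse 3) and -0.23. Basement membrane genes had a median of -0.40, which was -0.23 without injured wild-type mouse 3, and 4 of 25 tested members were lower.

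Toll-like receptors had a median of 0.34 over 25 tested genes, but without injured wild-type mouse 1 it was 0.03. At that p 2 members were higher (8.0%, against 2.2% of all tested genes), and 17 rose in mutants, against 13.1% of all tested genes. Interferon-stimulated genes had a median of 0.30, which was 0.18 without injured mutant 2. For these genes mutants differed from wild type by a median of -0.35 in intact discs and -0.04 in injured discs. The median of osteoclast markers, 0.29, was -0.03 without injured mutant 2.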
